A study of Homo sapiens with 2 samples.

Results

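miR-423 and miR-3184 are annotated on opposite strands of a single stretch of human chromosome 17. Their mature names, hsa-miR-423-5p, hsa-miR-423-3p, hsa-miR-3184-5p and hsa-miR-3184-3p, were taken by name from a table of 2218 mature miRNAs, and all 4 were listed. The libraries came from K562 cells, an established human erythroleukaemia line, grown in 1640 medium with serum. Cells of the GFP group were transduced with a lentivirus carrying GFP, and cells of the QKI5 group with a lentivirus that overexpresses QKI5, the isoform of the RNA-binding protein Quaking that resides in the nucleus. Lentiviral transduction was thus shared by both groups, and there was 1 library in each. No difference below has a replicate check, and no p-value is given. The comparison asks how the miRNA names of this locus differ in level when QKI5 is overexpressed.

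A miRNA is cut as a hairpin from a longer transcript by Drosha and then trimmed by Dicer to a short duplex, and 1 strand of that duplex is kept by an Argonaute protein. The strand from the 5′ side of the hairpin carries the suffix 5p and that from the 3′ side 3p, and the bases near its 5′ end, the seed, pair with target mRNAs. miR-423-5p is known from blood plasma, where it has been studied as a marker of heart failure, and miR-423-3p is in wide use as a reference miRNA in quantitative PCR. miR-3184 is the name given to products of the opposite strand of the miR-423 hairpin.

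The mature sequences below, from RefSeq on GRCh38.p14, are shown because each name is close to the complement of another, and because names on opposite strands share a seed. Capitals mark the seed, bases 2 to 8.
miR-423-5p: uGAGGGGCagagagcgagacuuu
miR-423-3p: aGCUCGGUcugaggccccucagu
miR-3184-5p: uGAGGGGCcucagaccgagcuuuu
miR-3184-3p: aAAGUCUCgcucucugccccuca
miR-423-5p and miR-3184-5p have the same seed and are identical over bases 1 to 8. Of the listed miRNAs with a RefSeq mature sequence, 1946 in all, these 2 were the only ones with this seed. miR-423-3p and miR-3184-3p shared their seeds with none of these miRNAs but themselves.

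The names on opposite strands pair as follows, with the complementary bases in capitals.
miR-423-5p: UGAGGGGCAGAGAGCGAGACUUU
miR-3184-3p: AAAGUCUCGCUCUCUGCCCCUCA
miR-423-3p: AGCUCGGUCUGAGGCCCCUCAgu
miR-3184-5p: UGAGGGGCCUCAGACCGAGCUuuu
miR-423-5p and miR-3184-3p are exact reverse complements over all 23 bases and share both ends. miR-423-3p and miR-3184-5p are complementary over 21 bases, beyond which miR-423-3p has 2 more bases at its 3′ end and miR-3184-5p has 3. In RefSeq on GRCh38.p14 the MIR423 hairpin lies at chr17:30117079-30117172 on the plus strand and the MIR3184 hairpin at chr17:30117086-30117160 on the minus strand, wholly inside it. The deposited table gives no positions, and its build, hg19, was not used for any. GENCODE release 29 places the hairpin within NSRP1, which encodes a splicing regulator of nuclear speckles. Of 12 NSRP1 transcripts that span it, 11 have it in an intron and 1 has it in exon 1, annotated there as UTR. On the minus strand, that of MIR3184, a transcript of type antisense and a transcript of type sense intronic also span the hairpin. The sense intronic transcript has it in exon 1. QKI proteins bind the motif ACUAAC or ACUAAU, with UAAC or UAAU as a half-site. On their own strands, the MIR423 and MIR3184 hairpins held 0 copies of the full motif and 1 copy of UAAC each. The full motif occurred in 1.58% of 1519 RefSeq hairpins, and UAAC in 12.4% of them. Either form of the half-site, UAAC or UAAU, occurred in 24.95% of them.

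The QKI5 library rested on 6553945 reads, 3899030 of them on listed miRNAs, and the GFP library on 23262340 reads, 15418197 of them on listed miRNAs. Levels are in RPM, reads per 1000000 reads of the library, and brackets after a level or ratio hold exact 95% intervals that cover counting error only. The QKI5 transcript was not analysed here, so its overexpression was not checked. The 6 blood and erythroid marker miRNAs were at 293 to 10427 RPM with QKI5 and 528 to 9441 RPM with GFP. Of the markers of other cell types, liver and muscle markers reached at most 1.98 RPM and miR-124-3p had at most 1 read. The 3 epithelial markers summed to 72.6 RPM with QKI5 and 64.3 RPM with GFP. miR-9-5p, known from neurons, had 332 RPM in QKI5 cells against 378 in GFP cells. The endothelial miR-126-3p had 38674 RPM in QKI5 cells against 14362 in GFP cells, and the stromal miR-145-5p had 2572 and 2588 RPM, while its cluster neighbour miR-143-3p was at 1.68 and 0.301 RPM. The part of these markers in the results below was not tested.

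All 4 names were higher in the QKI5 library, and they fell into pairs by side of the hairpin. The names of the 3p side of miR-423, miR-423-3p and its complement miR-3184-5p, were 3.90-fold and 3.31-fold higher. The names of the 5p side, miR-423-5p and its complement miR-3184-3p, were 1.39-fold higher each. Whether reads were counted by strand was not given, so the complementary names of a side may not be separate measurements. Their likeness is then no mutual support.

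hsa-miR-423-5p, the most abundant of the 4 names, had 338 RPM in QKI5 cells (324 to 352; 2216 reads) against 244 RPM in GFP cells (238 to 250; 5674 reads). The QKI5 level was the higher, with a ratio of 1.39 (1.32 to 1.46) and a log2 ratio of 0.47. hsa-miR-423-3p had 182 RPM in QKI5 cells (172 to 192; 1191 reads) against 46.6 RPM in GFP cells (43.9 to 49.5; 1084 reads). Its reads in the QKI5 library were more numerous although the GFP library was 3.55 times as deep, and the ratio was 3.90 (3.59 to 4.24), a log2 ratio of 1.96. Among all listed miRNAs it ranked 118th with QKI5 and 200th with GFP, while miR-423-5p ranked 83rd and 105th.

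Of the names annotated on the opposite strand, hsa-miR-3184-3p had 114 RPM in QKI5 cells (106 to 122; 746 reads) against 82.0 RPM in GFP cells (78.4 to 85.8; 1908 reads). Its ratio was 1.39 (1.27 to 1.51) and its log2 ratio 0.47, the same to 2 decimals as that of miR-423-5p, its exact complement. hsa-miR-3184-5p, the least abundant name, had 29.4 RPM in QKI5 cells (25.4 to 33.9; 193 reads) against 8.90 RPM in GFP cells (7.73 to 10.2; 207 reads). The ratio was 3.31 (2.71 to 4.05), a log2 ratio of 1.71, and its interval overlapped that of miR-423-3p. The ratios of miR-3184-5p and miR-423-5p, the names that share a seed, lay apart, and their intervals did not overlap.

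The order of the names differed between the libraries. miR-423-5p was highest and miR-3184-5p lowest in both. Between them, miR-423-3p stood above miR-3184-3p with QKI5 and below it with GFP, and in neither library did the counting intervals of these levels overlap. The plot of levels by library shows this exchange.

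**Figure D1:**
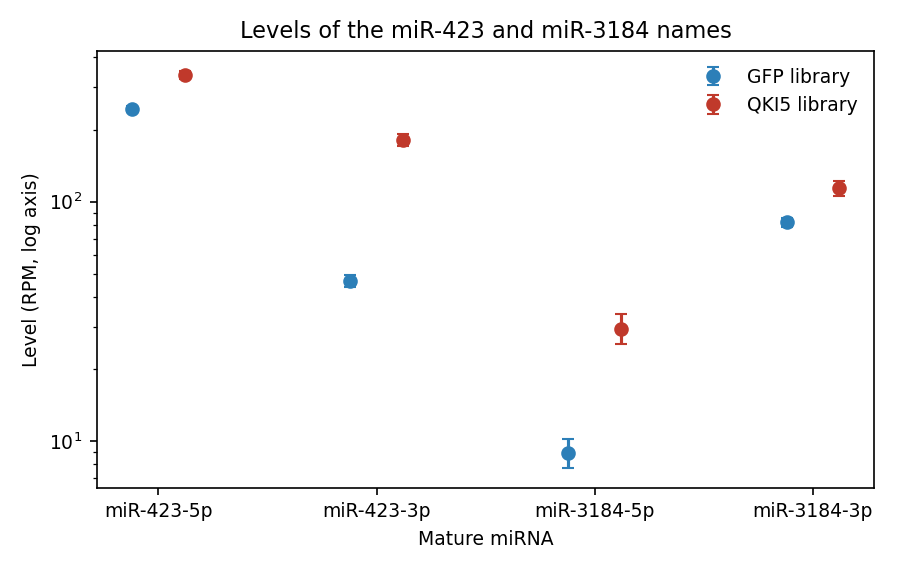
Levels of the 4 names in RPM on a log axis, with 1 point per library (blue GFP, red QKI5) and bars for exact 95% counting intervals. miR-423-3p moves from 46.6 RPM with GFP to 182 RPM with QKI5 and so from below miR-3184-3p (82.0 RPM) to above it (114 RPM).

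Added up, the 4 names had 663 RPM in QKI5 cells against 381 RPM in GFP cells, a ratio of 1.74 (1.68 to 1.80). The arms of miR-423 together were at 520 and 291 RPM (ratio 1.79, 1.72 to 1.86), and those of miR-3184 at 143 and 90.9 RPM (ratio 1.58, 1.46 to 1.70). By side of the hairpin, miR-423-5p with miR-3184-3p gave a ratio of 1.39 (1.33 to 1.45), and miR-423-3p with miR-3184-5p a ratio of 3.81 (3.52 to 4.11). The intervals of the sides were far apart.

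Beside the other miRNAs, miR-423-3p was among those at least 2-fold higher with QKI5, which made up 15.0% of the 200 most abundant miRNAs, 30 in number. miR-423-5p and miR-3184-3p, also among the 200, were within 2-fold. miR-3184-5p ranked 274th by mean level and was past 2-fold too, as were 20.8% of the 400 most abundant. A count of 2 names past 2-fold among 4 that share a locus describes that locus only. The median log2 ratio was 0.06 over the 200 and 0.21 over the 400. In 9 other settings of pseudocount, scaling, base composition and strand pooling, the log2 ratio of miR-423-3p ran from 1.49 to 2.12 and that of miR-3184-5p from 1.33 to 1.92. That of miR-423-5p ran from 0.24 to 0.63 and that of miR-3184-3p from 0.15 to 0.63, so in these settings no name changed direction or its side of 2-fold. Strand pooling gives each name the value of its side of the hairpin, 1.92 for miR-423-3p and miR-3184-5p and 0.47 for the other names.

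**Figure D2:**
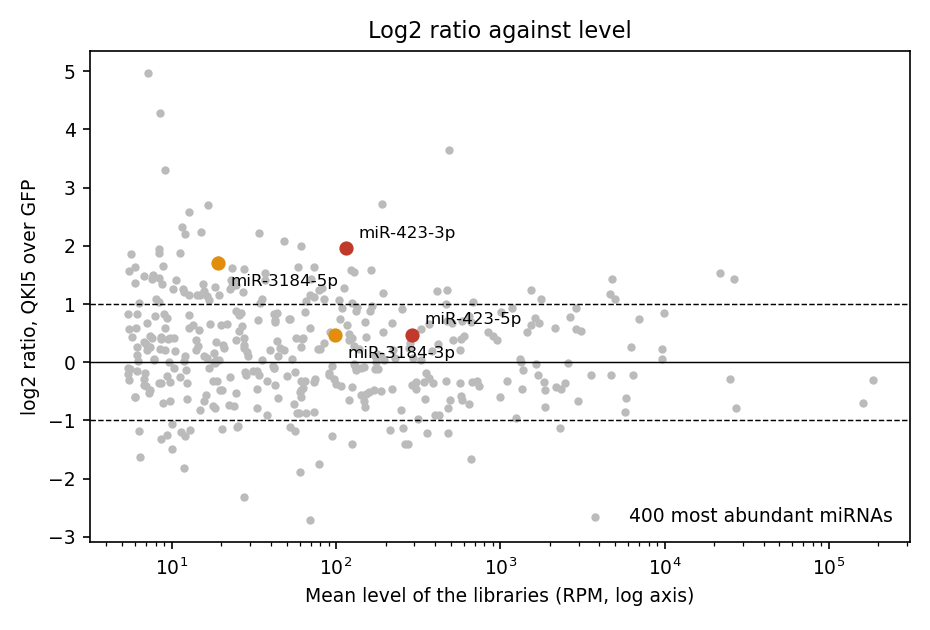
Log2 ratio of QKI5 over GFP against the mean level of the libraries (RPM, log axis) for the 400 most abundant miRNAs in grey, with dashed lines at 2-fold. The miR-423 names are in red and the miR-3184 names in orange, with miR-423-3p at 1.96 and miR-3184-5p at 1.71 above the upper line and the other 2 names at 0.47 below it.

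These miRNAs are rich in G and C, and GC content moved with the log2 ratio in these libraries. Over the 358 of the 400 most abundant miRNAs with a RefSeq sequence, Pearson's r was 0.33 and Spearman's rho 0.33. These points share their libraries and their depth, so the values only describe the libraries. GC content was 65.2% for miR-423-3p, 58.3% for miR-3184-5p and 56.5% for both miR-423-5p and miR-3184-3p, against a median of 47.6% over the 400. With the linear GC trend removed, the log2 ratios were 1.49, 1.43, 0.24 and 0.24 in that order, which left both sides of the hairpin apart.

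The share of miR-423 reads on each arm differed between the libraries. The 5p arm held 65.0% of miR-423 reads with QKI5 (63.4% to 66.6%; 2216 of 3407) and 84.0% with GFP (83.1% to 84.8%; 5674 of 6758), 18.9 percentage points apart. There were 1.86 miR-423-5p reads per miR-423-3p read with QKI5 and 5.23 with GFP, 2.81 times as many with GFP (2.55 to 3.10). Shares within a library do not depend on how the libraries were scaled.

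The arms of miR-3184, whose 3p arm is the complement of miR-423-5p, also differed in share between the libraries. The 3p arm held 79.4% of miR-3184 reads with QKI5 (76.7% to 82.0%) and 90.2% with GFP (88.9% to 91.4%). In reads, miR-3184-3p stood at 3.87 per miR-3184-5p read with QKI5 and 9.22 with GFP, 2.38 times as many with GFP (1.91 to 2.97). This interval overlapped that of the miR-423 arms.

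The shift was read against the other hairpins. Of 177 hairpins with both arms listed and at least 100 reads in each library, 7.91% had a 5p share at least 10 points lower with QKI5, miR-423 among them, and 10.7% at least 10 points higher, miR-3184 among them. The median shift in either direction was 1.56 points. That of miR-423 was the 13th largest in size, and 8 hairpins including it moved down as far or further. The shift of miR-3184, 10.8 points upward for its 5p arm, was the 30th largest. The hairpins with the largest shifts down were miR-361 (from 87.7% with GFP to 43.4% with QKI5), miR-652 (79.7% to 39.0%) and miR-378a (46.9% to 22.7%). Those with the largest shifts up were miR-539 (25.4% to 74.7%), miR-628 (53.0% to 85.2%) and miR-188 (54.2% to 86.2%). In miR-361, miR-652 and miR-378a the 5p arm had a log2 ratio below 0 and the 3p arm above 0. In miR-423 both arms were above 0, as in 63 of the 177. The log2 ratios of its arms differed by 1.49, and 32 hairpins including it had a difference of at least that size, against a median size of 0.73.

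**Figure D3:**
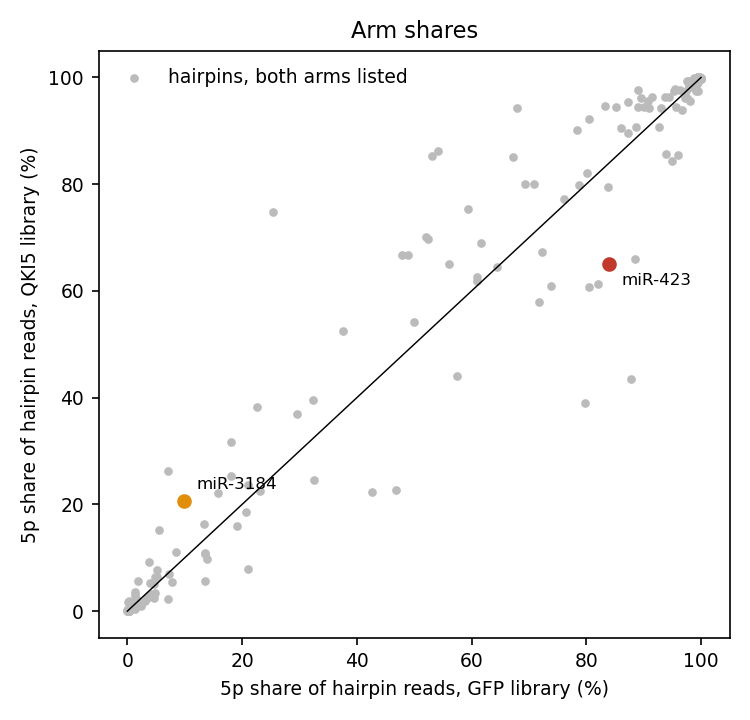
Share of a hairpin's reads on its 5p arm in the GFP library (x axis, %) and the QKI5 library (y axis, %) for 177 hairpins, with the line of equal shares. miR-423 (red) lies under the line, at 84.0% and 65.0%, and miR-3184 (orange) above it, at 9.79% and 20.6%.

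The share of reads given to the opposite-strand names was set beside that given to the miR-423 names. The miR-3184 names held 21.6% of the reads of all 4 names with QKI5 (20.4% to 22.9%; 939 of 4346) and 23.8% with GFP (23.0% to 24.7%; 2115 of 8873), and these intervals did not overlap. Within the 5p side, miR-3184-3p held 25.2% of the reads of itself and miR-423-5p in both libraries (23.6% to 26.8% with QKI5, 24.2% to 26.2% with GFP). There were 0.337 miR-3184-3p reads per miR-423-5p read with QKI5 and 0.336 with GFP, and the counting interval of the quotient of these values ran from 0.906 to 1.11. Within the 3p side, miR-3184-5p held 13.9% with QKI5 (12.2% to 15.9%) and 16.0% with GFP (14.1% to 18.2%), and these intervals overlapped. Its reads per miR-423-3p read were 0.162 and 0.191, a ratio of 0.849 (0.682 to 1.06). The 5p side, where the opposite-strand name took the larger share, made up 68.2% of all reads of the 4 names with QKI5 and 85.5% with GFP. The sources used here do not say whether the authors counted reads by strand, so reads from miR-423 and from its opposite strand cannot be told apart.

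Other miRNAs with an annotated opposite-strand partner were set beside these. A search of the RefSeq mature sequences for names complementary over at least 18 bases, on opposite strands of a hairpin, found 26 pairs of listed names. Of these, 11 had at least 100 reads in each library, miR-423 giving 2 of them. The less abundant name held 0.845% to 39.6% of a pair's reads with QKI5 (median 16.8%) and 0.989% to 35.2% with GFP (median 16.5%). In 10 of the 11 pairs both names had log2 ratios of the same sign. No share over other miRNAs was set beside this count. Several loci gave 2 pairs each, so the 11 are not separate cases.

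The most abundant pair was that of miR-103a-3p, made from introns of pantothenate kinase genes, and miR-103b. Like miR-423-5p and miR-3184-3p they are exact complements with shared ends. miR-24-3p and miR-3074-5p, by contrast, are complementary with staggered ends, as the lower case letters show.
miR-103a-3p: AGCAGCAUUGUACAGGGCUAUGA
miR-103b: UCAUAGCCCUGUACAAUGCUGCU
miR-24-3p: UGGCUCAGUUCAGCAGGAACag
miR-3074-5p: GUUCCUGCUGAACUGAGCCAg
miR-103b held 26.1% of the reads of its pair in both libraries, and the log2 ratios of miR-103a-3p and miR-103b were 1.08 and 1.09. Beside miR-374b-5p, miR-374c-3p held 16.8% of the reads with QKI5 and 16.5% with GFP. In the third most abundant pair miR-7-5p held 39.6% with QKI5 and 35.2% with GFP beside miR-3529-3p. miR-3074-5p held 3.48% and 6.18% beside miR-24-3p, and the log2 ratios of the pair were 0.35 and 1.23. Reads of miR-24-3p are not split by locus, although its 5p names are listed by locus, so this share may mix loci.

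Split by ends, a grouping made after the values were seen, 6 pairs had the same ends and 5 did not. In the 6 pairs the less abundant name held 16.5% to 39.6% of the reads, and 4 of them, including miR-3184-3p, held 25% to 28% in both libraries. In the other 5 it held 0.845% to 16.0%, with miR-3184-5p the highest. The log2 ratios of the names of a pair differed by at most 0.27 in the 6 pairs, and by 0.25, for miR-423-3p and miR-3184-5p, to 1.19 in the other 5. No test was made of this split.

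**Figure D4:**
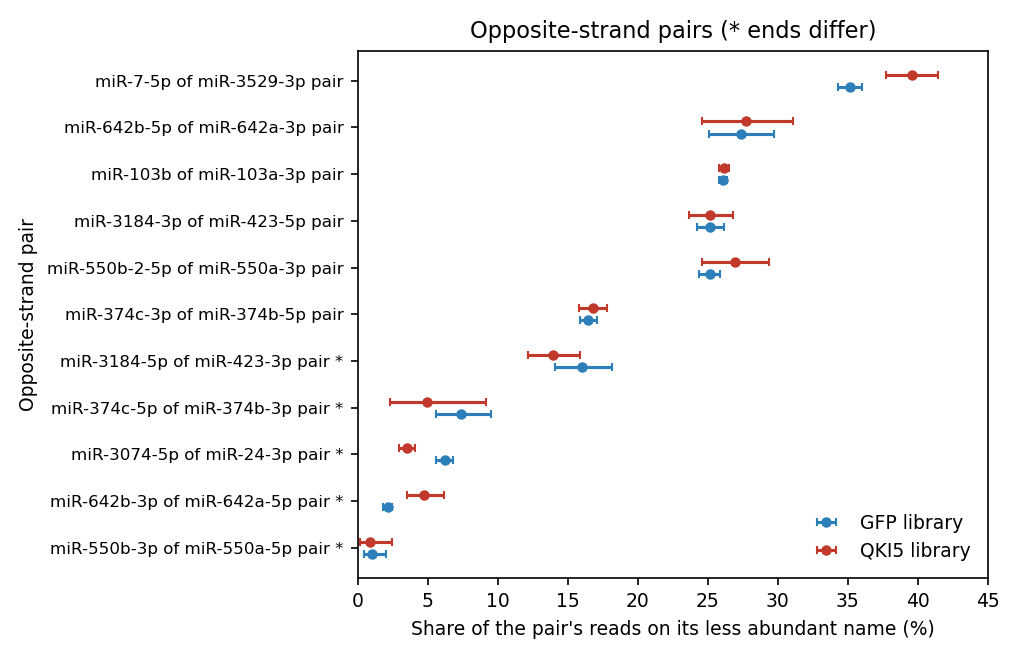
Share of a pair's reads on its less abundant name (%) for 11 opposite-strand pairs, in the GFP (blue) and QKI5 (red) libraries, with exact 95% counting intervals. Pairs whose ends differ are marked with an asterisk and lie at 16.0% or lower, and miR-3184-3p lies at 25.2% in both libraries.

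miRNAs near the 2 arms in log2 ratio were sought among the 200 most abundant, leaving out the miR-423 and miR-3184 names themselves. Likeness here rests on 2 libraries, that is on a single ratio. Nearest to miR-423-5p were miR-374b-5p, miR-485-3p, miR-374c-3p, miR-433-3p and miR-126-5p, with log2 ratios of 0.46, 0.45, 0.49, 0.44 and 0.51. miR-374b-5p and miR-374c-3p are an opposite-strand pair themselves. Nearest to miR-423-3p were miR-539-5p, 0.03 above it, and miR-660-5p, miR-4286, miR-192-5p and miR-941, which were 0.32 to 0.38 below it on the log2 scale.

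Since both arms of miR-423 serve as references in quantitative PCR, they were set beside 15 other miRNAs used in that way. Of the 15, 3 (20%) were at least 2-fold higher with QKI5 and 1 (6.67%) at least 2-fold lower. Of the 200 most abundant miRNAs, 15.0% and 7% were, so these shares lay near the background. The 200 held 14 of the 15. All 15 were among the 400 most abundant, of which 20.8% were at least 2-fold higher. In sign, 7 of the 15 were above 0 and 8 below, and their median log2 ratio was -0.03. The median turned to 0.13 with the columns rescaled to the listed miRNAs. The GC trend could be removed only for the 12 with a RefSeq sequence, whose median was 0.54 before and 0.27 after. miR-24-3p had the highest log2 ratio, 1.23, and miR-361-5p the lowest, -1.88. The most abundant, miR-16-5p, had 12705 RPM in QKI5 cells against 7083 in GFP cells and a log2 ratio of 0.84. The log2 ratio of miR-423-3p was higher than those of all 15 in the main setting and in the 7 settings of scaling and pseudocount compared, and higher than those of the 12 with the GC trend removed. miR-423-5p was exceeded by 7 of the 15, and by 4 of them under quantile normalization. Of the 12, 7 exceeded it before and 6 after the GC trend was removed.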

How the data were processed

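Small RNA was isolated and sequenced on an Ion Proton instrument, per the labels' protocols, with 1 library per group. Bowtie 0.12.3 and hg19 are named, per the submitters' processing notes. The miRNA annotation, mismatch limit, handling of reads matching several miRNAs and strand setting were not given in the sources used here. Although the deposited table is titled RPKM, the authors' values are RPM: in each column all values above 0 were whole multiples of a common step (100.0% within 0.1 of a read), which gave reads and library totals. The design had foreseen either unit.

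Log2 ratios used log2(RPM + 0.153), the larger of the libraries' smallest values above 0, so that ratios of scarce miRNAs come out too small. Plain ratios carry exact conditional binomial 95% intervals, shares Clopper-Pearson intervals, and ratios of read ratios exact conditional intervals for a 2 by 2 table. Reads carry no molecular identifiers and so are not independent molecules. With 1 library per group no test was made. Mature sequences were from RefSeq (GRCh38.p14), matched by name for 4 of 4 names and 358 of the 400 most abundant miRNAs, and host transcripts from GENCODE release 29. An opposite-strand pair had names complementary over at least 18 bases, 1 of them lying within a hairpin entry of the opposite strand that contains the other. Besides the 4 names, the text names the 5 miRNAs nearest each miR-423 arm in log2 ratio, the 3 most abundant pairs, the 3 hairpins with the largest shift each way, and from the reference list the highest, lowest and most abundant. miR-24-3p with miR-3074-5p was chosen after its values were seen. The members and lists were chosen with earlier results of these data known. Alternatives covered pseudocount, scaling, GC content, level filter, fold threshold, strand pooling and read minimum. The ratio calculation was tested on simulated data. Python 3.11.15, numpy 2.4.6, scipy 1.17.1, pandas 2.3.3 and matplotlib 3.10.9 were used.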

Additional observations from a re-analysis of the deposited data

How the results depend on the processing

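No paired analysis was possible because each group has 1 library, and for the same reason no library could be left out. Direction and side of 2-fold held for the 4 names in the 9 alternatives compared. Of these, strand pooling gives each name the value of its side, and the plain ratio without a pseudocount was chosen after seeing the data. Rescaling the columns to the listed miRNAs moved the median log2 ratio of the 200 most abundant miRNAs from 0.06 to 0.21 and gave 0.63 for miR-423-5p, 2.12 for miR-423-3p and 0.63 for miR-3184-3p. Leaving the 10 most abundant miRNAs out of the scaling moved that median to -0.05 and miR-423-5p to 0.36. Quantile normalization gave 0.60 for miR-423-5p, 1.33 for miR-3184-5p and 0.15 for miR-3184-3p, and a trimmed mean gave 0.39 for miR-423-5p. With the GC trend removed, which was possible for 186 of the 200 most abundant miRNAs, the values were 0.24 for miR-423-5p, 1.49 for miR-423-3p, 1.43 for miR-3184-5p and 0.24 for miR-3184-3p. With the opposite-strand names added, the 5p share of miR-423 was 68.2% with QKI5 and 85.5% with GFP. The share of the miR-3184 names was 25.2% in both libraries within the miR-423-5p side, and 13.9% with QKI5 and 16.0% with GFP within the miR-423-3p side. The 30 miRNAs at least 2-fold higher became 18 under quantile normalization, the cause of which was not tested. By construction, they were 11 of the 100, 83 of the 400 most abundant and 475 of all detected miRNAs, and 59 at 1.5-fold and 7 at 3-fold. The 14 at least 2-fold lower became 4, 29, 145, 40 and 4 in the same order. With the pseudocount used, 1 QKI5 read against 0 GFP reads gave a log2 ratio of 1. In reverse, 0 QKI5 reads against 1 GFP read gave only -0.36. The 475 and the 145 were therefore not counted on equal terms, and they say little about direction among scarce miRNAs. With at least 500 reads, 4 hairpins moved down as far as miR-423 and 17 moved as far as miR-3184, of fewer hairpins, 121. The depth of the QKI5 library limits miR-3184-5p, with 193 reads, most.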
